A study of Rattus norvegicus with 24 samples.

Results

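Solitary cocaine INO80 peaks were the members of the cocaine peak list that had no other cocaine peak within 10000 bp, edge to edge, on either side. The rule was applied on chromosomes 1 to 20 and X of the rat genome build rn6, and it left 7319 of the 71280 cocaine peaks there (10.3%). The whole cocaine list held 71723 peaks, and the 443 on chromosome Y, mitochondrial DNA and unplaced scaffolds were not used. Solitude was defined from the called positions of the cocaine list, so the spacing, length, pileup and fold of the members are given as descriptions of that list, with no test. The saline list was not used to choose them.

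INO80 is the ATPase subunit of a chromatin remodelling complex that slides and spaces nucleosomes. It can act at gene starts and enhancers, at replication forks and at broken DNA, so its occupancy in a tissue can take the form of broad regions or of single sites. The nucleus accumbens is a part of the ventral striatum that is needed for drug seeking and reward learning. A solitary peak is a place where the caller found 1 enriched interval and nothing else for at least 10 kb around it.

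The study compared 2 treatments in rat nucleus accumbens by chromatin immunoprecipitation and sequencing (ChIP-seq), with 4 groups of 6 libraries. These were INO80 ChIP and input DNA from cocaine rats, and INO80 ChIP and input DNA from saline rats. Each group had 3 numbered samples with 2 runs each. Cocaine rats had self-administered the drug with extended access and were killed after 30 days of withdrawal. The saline samples carry the same treatment text, and their group rests on their titles and their treatment label. Strain, age, sex and whether a numbered sample is 1 animal or several were not given in the sources used here. Peak calling by the authors pooled the samples of a treatment, so there was 1 list per treatment, no replicate error and no test across animals. Peak lists hold no expression values, so the tissue label could not be checked against marker genes. The cocaine pool had 43489910 ChIP tags and 101490635 input tags, and the saline pool had 37905014 and 100697179. Positions in the lists carry no gene names, and the gene and sequence tables at hand are of another build (GRCr8). The genes at the sites named here and their DNA sequences were therefore not analysed here.

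Solitary peaks were a minority of the peaks and a large share of the places where peaks occurred. Chaining cocaine peaks that lay no more than 10000 bp apart gave 16990 stretches, and 43.1% of these stretches were a single solitary peak. The solitary peaks covered 820 kb, which was 8.49% of the length covered by all cocaine peaks on these chromosomes. Most of the list thus lay in stretches of several peaks, while the single peaks were many but small.

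The solitary peaks ranged from barely separate to far from any other site. Their median distance to the nearest cocaine peak was 28.96 kb, with quartiles of 15.9 and 72.1 kb. Among the other cocaine peaks the median distance was 393 bp. A nearest peak farther than 100 kb was found for 1387 members (18.95%), and farther than 1 Mb for 34. On the other side, the gap to the more distant neighbour had a median of 119.5 kb. In 29.4% of the members with a neighbour on both sides the longer gap was more than 5 times the shorter.

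**Figure D1:**
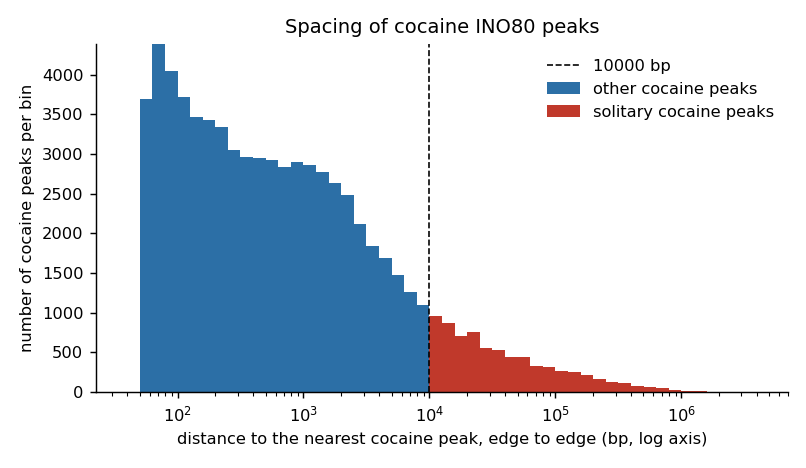
Number of cocaine peaks (vertical axis) by distance to the nearest other cocaine peak (horizontal axis, bp, log scale, equal log bins), with the 7319 solitary peaks in red, the other peaks in blue and the 10000 bp threshold dashed. Counts decline smoothly through the threshold, and distances reach 2415 kb.

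The threshold did not fall at a break in the distribution of distances. The 5 members just inside had nearest distances of 10001 to 10026 bp and pileups of 10 to 57, where pileup counts the ChIP fragments that overlap at a peak's summit. Among them was the site on chromosome 8 (71216016 to 71216231), with a pileup of 57. The one nearest the threshold, on chromosome 2 (189714814 to 189715006), had a pileup of 14. The 5 peaks just outside had distances of 9990 to 9998 bp and pileups of 12 to 54, and the closest, chromosome 3 at 153049909 to 153050011, had the pileup of 54. A pair of them, on chromosome 7 (529940 to 530013 and 540006 to 540075), were each other's neighbours and stood on input of 21.9 and 12.4 times the genome-wide level, with folds of 1.95 and 2.77. The other 3 just outside, and all 5 just inside, had local input under 3 times that level.

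Solitary peaks were narrower and lower than the other cocaine peaks. Their median length was 81 bp (quartiles 61 and 127), against 105 bp (71 and 159) for the others. The median pileup was 15 (12 and 22), against 19 (14 and 30). Fold enrichment, the caller's ratio of ChIP pileup to local input background, had a median of 6.44 (5.19 and 8.74), against 7.82 (5.98 and 10.6). The distributions overlapped over most of their range, and the shift was one of proportions.

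The shift was seen at both ends of the length scale. The shortest possible peak, 54 bp, is as long as the fragment length used by the caller, and 799 solitary peaks had it (10.9%), against 3451 others (5.40%). Peaks over 300 bp made up 3.62% of the solitary group (265) and 6.16% of the others (3939). High folds were also rarer, with 37 solitary peaks at a fold of 20 or more (0.506%) against 691 others (1.08%). Weak calls were few but more common among solitary peaks: 91 of them (1.24%) and 234 others (0.366%) had a −log10 q under 2.

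**Figure D2:**
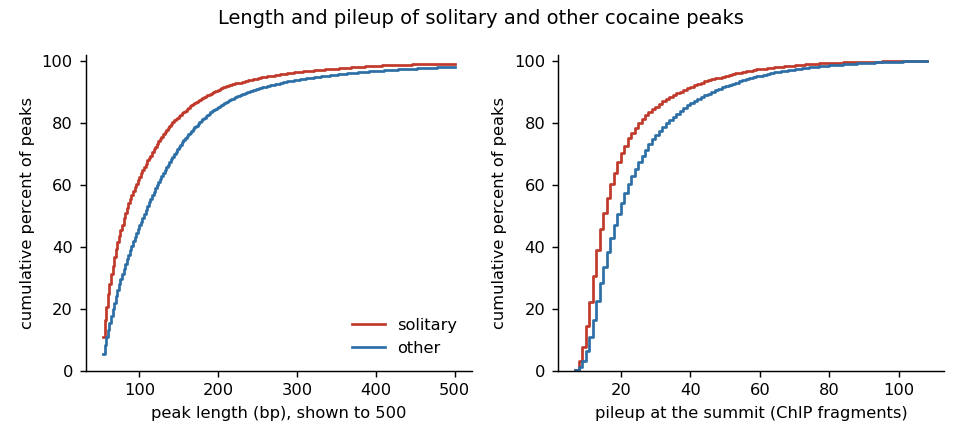
Cumulative percent of peaks (vertical axes) by peak length in bp (left, shown to 500 bp) and by pileup in ChIP fragments (right), with solitary peaks in red and other cocaine peaks in blue. The red curves lie above the blue ones, with medians of 81 against 105 bp and 15 against 19 fragments.

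Length and pileup changed differently with increasing isolation. Among solitary peaks with a neighbour 10 to 20 kb away, the median length was 88 bp and the median pileup 15. Among the 649 with no neighbour within 200 kb, the median length was 68 bp and the median pileup 16. More isolated members were thus shorter at about the same height. Among the other peaks, by contrast, both measures were higher where spacing was tighter, from 92 bp and 16 fragments at 5 to 10 kb to 112 bp and 21 fragments under 500 bp.

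Solitary peaks were also the shorter at like pileup. At ordinary background, defined here as local input less than 3 times its genome-wide level, peaks with pileups of 11 to 15 had median lengths of 71 bp when solitary and 74 bp otherwise. At pileups of 7 to 10 the medians were 72 and 78 bp, and at 16 to 20 they were 84 and 97 bp. At pileups of 21 to 30 they were 106 and 124 bp, at 31 to 50 they were 132 and 156 bp, and over 50 they were 167 and 189 bp. The solitary median was the shorter in each of the 6 classes.

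Most solitary peaks stood on shallow input. For 3415 of them (46.7%) the local background equalled the genome-wide level of 1.17 fragments, the lowest the caller uses, against 39.9% of the others. At that level fold is fixed by pileup alone, and the median fold was 6.44 for solitary peaks and 7.36 for the others. Background was ordinary for 6741 solitary peaks (92.1%) and 58448 others (91.4%). High background, 10 times the genome-wide level or more, was found under 167 solitary peaks (2.28%) and 2288 others (3.58%).

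The solitary peaks of high background were taller and of lower fold than solitary peaks as a whole. Their median length was 68 bp, with a median pileup of 51 and a median fold of 2.73, so that a tall stack of ChIP fragments stood on a tall stack of input. The 2288 other cocaine peaks of high background had medians of 98 bp, 66 fragments and a fold of 2.53. High pileup at low fold was thus not particular to solitary peaks. The 5 with the deepest input lay at 25.2 to 34.3 times the genome-wide level. Deepest of all was chromosome 19 (57975319 to 57975468), where 107 fragments stood at the summit for a fold of 2.62. Next came a site on chromosome 20 (40898644 to 40898873), with 80 fragments and a fold of 2.24. The site on chromosome 15 (56682159 to 56682250) reached a pileup of 108, the highest that the caller can give with 1 tag kept per position and strand. The last 2, on chromosome 7 (27563474 to 27563565) and chromosome 9 (8631228 to 8631297), had folds of 1.87 and 1.80.

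Some solitary peaks were strong. The 10 solitary peaks of highest fold had folds of 22.3 to 29.9 and pileups of 48 to 64, lay on 7 chromosomes and all stood on ordinary background. Chromosome 1 held the strongest (265469241 to 265469616, pileup 64, fold 29.9), with its neighbours 35.6 and 48.5 kb away. The second was the chromosome 8 site at 71216016 described at the threshold, with a fold of 25.4. It was followed by chromosome 2 (204031784 to 204032034, fold 24.5), which had a neighbour at 10.5 kb on one side and none for 1457 kb on the other.

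The remaining sites of highest fold were spread over 6 chromosomes and differed widely in width. Chromosome 6 (27024013 to 27024142) had a fold of 24.4. Chromosome 4 (90864726 to 90864862) and chromosome 12 (17679828 to 17680025) shared the same pileup, 62, and the same fold, 23.2. Their surroundings differed, with 6 and 111 other cocaine peaks within 1 Mb of the summit. Chromosome 8 (60830290 to 60830505) and chromosome 16 (7080616 to 7080764) were also matched, with 52 fragments and a fold of 23.2. The last of the 10 were on chromosome 1, at 146288888 to 146289585 (698 bp, fold 22.5) and at 192932840 to 192933899 (1060 bp, fold 22.3). Of these 10 sites the first overlapped a saline peak, where 0.334% of all ordinary-background cocaine peaks and 2.47% of all cocaine peaks did.

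Long solitary peaks were few. Lengths over 1000 bp occurred in 8 solitary peaks and in 152 others. The longest, on chromosome 9 (37057058 to 37060597), measured 3540 bp, with 84 fragments at its summit, a fold of 6.54 and input at 10.22 times the genome-wide level. The next 3 all had ordinary background. They lay on chromosome 2 (100696680 to 100698250, 1571 bp, fold 12.4), chromosome 7 (92880318 to 92881874, 1557 bp, fold 12.4) and chromosome 5 (18901040 to 18902564, 1525 bp, fold 14.7). The fifth, on chromosome 4 (163118334 to 163119417), measured 1084 bp with a fold of 10.9.

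The most isolated peaks were mostly short. The 10 farthest from any cocaine peak had nearest distances of 1.54 to 2.41 Mb, and 7 of the 10 were no longer than 60 bp. The first, on chromosome 6 (140816665 to 140816782), had gaps of 2.41 and 2.69 Mb, a length of 118 bp, a pileup of 27 and a fold of 10.3. Chromosome 13 held 5 of the 10. They were at 12298566 (pileup 25, fold 8.27), 23334098 (58, 12.1), 58717904 (50, 2.46), 63341150 (29, 7.50) and 65028171 (16, 7.44). The last pair were each other's nearest peaks, 1.69 Mb apart, and the site at 58717904 stood on a background of 16.8 times the genome-wide level.

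The other 5 were single sites on 5 chromosomes, chromosome 6 included. Chromosome X (90664897 to 90664952) reached 15 fragments and was 26.1 Mb from the nearest saline peak. Chromosome 3 (27796089 to 27796144) reached 20 fragments, at a fold of 4.32. Chromosome 18 (9922476 to 9922529) and chromosome 7 (7162438 to 7162491) had the shortest length, 54 bp, with pileups of 12 and 13. All 10 had no other cocaine peak within 1 Mb of the summit.

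Many solitary peaks had another solitary peak next to them along the chromosome. Of the 7319, 5228 (71.4%) had another solitary peak as an adjacent cocaine peak, and 2091 lay singly between stretches of several peaks. Single peaks made up 43.1% of all stretches, so many solitary neighbours would occur with stretches in random order. Whether there were more than that was not tested. Runs of 5 or more successive solitary peaks numbered 212 and held 1308 members. The longest runs, of 13 peaks each, were both on chromosome 2. One extended over 7.10 Mb (63101903 to 70203606), with a median length of 73 bp and a median pileup of 14. The other extended over 1.59 Mb (82341065 to 83935393), with a median length of 159 bp and a median pileup of 27. Runs of 12 peaks lay on chromosome 4 (60348009 to 61234103), chromosome 8 (6078634 to 11886565), chromosome 9 (50795498 to 53573975) and chromosome 10 (21005453 to 24968769).

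Chromosomes differed less in solitary peaks than in peaks overall. The density of all cocaine peaks ran from 16.2 to 54.1 per Mb, a range of 3.34-fold, with chromosome length taken as the last peak end. The density of solitary peaks ran from 1.95 to 3.76 per Mb, a range of 1.93-fold around a genome-wide 2.64. Chromosome 12 (3.76), chromosome 10 (3.67) and chromosome 19 (3.42) had most solitary peaks per Mb. Chromosome X (1.95), chromosome 13 (2.00) and chromosome 2 (2.03) had fewest.

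As a share of a chromosome's cocaine peaks, the order was a different one. Solitary peaks made up 6.78% of the peaks on chromosome 10, 7.89% on chromosome 1 and 8.11% on chromosome 12. They made up 14.0% on chromosome 18, 13.9% on chromosome 17 and 13.5% on chromosome 6. Over the 21 chromosomes, total density and solitary density had a Pearson r of 0.815 and a Spearman rho of 0.714, and total density and solitary share had r of −0.819 and rho of −0.777. Without the 2 densest chromosomes, 10 and 12, the r values were 0.657 and −0.762. Solitary peaks are part of the total and all chromosomes share the same libraries, so these are descriptions only. The solitary rule also uses the positions that give the density. On a denser chromosome more peaks have a neighbour within 10000 bp, which lowers the solitary share by construction.

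**Figure D3:**
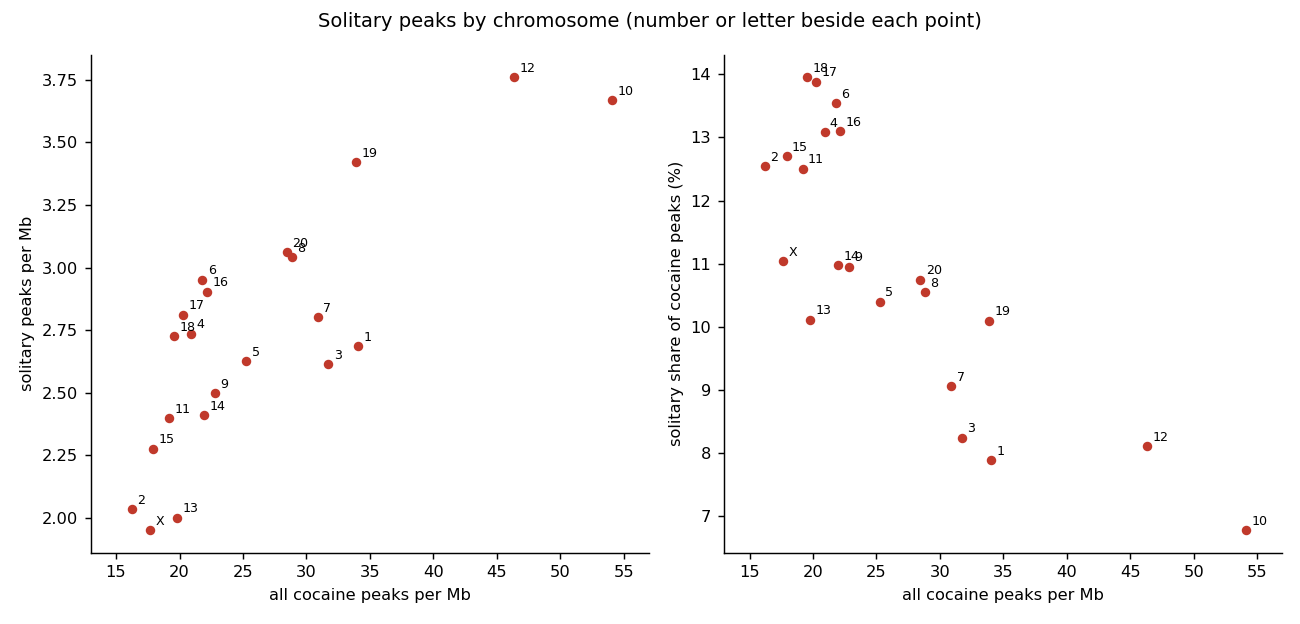
Solitary peaks per Mb (left) and solitary share of cocaine peaks in percent (right) against all cocaine peaks per Mb, 1 point per chromosome, axes not starting at 0. Solitary density is highest on chromosomes 12 (3.76) and 10 (3.67), where the solitary share is among the lowest (8.11% and 6.78%).

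Chromosome medians of solitary peaks lay close together except for a few. Median length ran from 71 bp on chromosome X to 91 bp on chromosomes 10 and 13, and median pileup from 14 to 19. The highest median pileup was on chromosome 19, where 27 of 212 solitary peaks (12.7%) had high background. Chromosome 9 followed with 22 of 304 (7.24%) and chromosome 1 with 33 of 759 (4.35%), while chromosome 18 had 0 of 240. Chromosome X also had the widest median spacing of its solitary peaks, 47.3 kb, against 20.5 kb on chromosome 10. Chromosome 13 supplied 10 of the 34 members with no neighbour within 1 Mb.

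Few solitary cocaine peaks met a saline peak. An overlap of at least 1 bp was found for 133 of 7319 (1.82%, Wilson 95% interval 1.54 to 2.15), against 1628 of 63961 other cocaine peaks (2.55%, 2.43 to 2.67). Over all cocaine peaks on these chromosomes the share was 2.47%. Intervals cover counting error of these pooled lists only, and neighbouring peaks are not independent. Among the members without overlap, 28 had a saline peak within 10 kb.

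Within classes of input background the comparison took a different form. At ordinary background, where 0.334% of all cocaine peaks overlapped a saline peak, 66 of 6741 solitary peaks did (0.979%, 0.770 to 1.24) and 152 of 58448 others did (0.260%, 0.222 to 0.305). The solitary share was 3.76 times the other share (interval 2.82 to 5.02). At high background, where the share over all cocaine peaks was 61.8%, 64 of 167 solitary peaks overlapped (38.3%, 31.3 to 45.9) and 1452 of 2288 others did (63.5%, 61.5 to 65.4), a ratio of 0.604. Between the classes, at 3 to 10 times background, the numbers were 3 of 411 and 24 of 3225, against 0.743% of all cocaine peaks in that class. The lower share of solitary peaks over the whole list thus went with their smaller number of high-background sites and their lower overlap there.

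The ratio at ordinary background depended on what was counted. Counted by stretch in place of peak, at least 1 ordinary-background peak of the stretch met a saline peak in 0.979% of the single-peak stretches and in 145 of 9331 longer ones (1.55%), a ratio of 0.630. Stretches of 2 peaks had 0.863% (0.576 to 1.29) and stretches of 3 to 4 had 1.09% (0.747 to 1.57), both within the counting error of the solitary value. Stretches of over 20 peaks had 6.01% (4.17 to 8.61). Counted by peak, the share fell from 0.979% in solitary peaks to 0.448% in pairs and lay between 0.203% and 0.236% in stretches of 5 peaks or more. A long stretch therefore met the saline list more often than a single peak did, and any 1 of its peaks less often. The ratio by peak was 2.08 with edges up to 1 kb apart counted as shared, and 1.62 with the background limit at 20 times the genome-wide level.

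**Figure D4:**
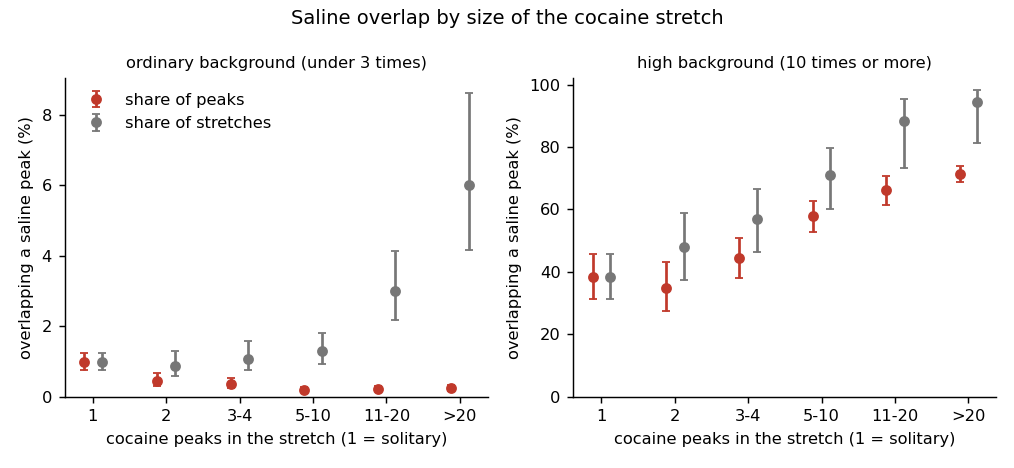
Percent overlapping a saline peak (vertical axes) by the number of cocaine peaks in the stretch (horizontal axes, 1 is solitary), counted over peaks (red) and over stretches (grey), with Wilson 95% intervals, at ordinary (left) and high (right) background. At ordinary background the red points fall from 0.979% and the grey points rise to 6.01%, while at high background both are higher in the longest stretches (71.4% and 94.3%) than in solitary peaks (38.3%).

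At high background both counts were higher in long stretches. By peak the share was 34.8% in pairs (27.3 to 43.0), 44.4% in stretches of 3 to 4 (38.1 to 51.0) and 71.4% in stretches of over 20. By stretch it was 48.1% in pairs and 94.3% in stretches of over 20. The solitary value of 38.3% thus lay within counting error of pairs and of stretches of 3 to 4 when peaks were counted.

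At ordinary background, solitary peaks with and without a saline partner differed in width far more than in pileup. The 66 shared ones had a median length of 237 bp (quartiles 163.5 and 323), against 81 bp (60 and 123.5) for the 6675 without a saline peak. Their median pileups were close, 16 (13 and 21) against 15 (12 and 20). The other cocaine peaks showed the same, with 257.5 bp in the 152 shared and 103 bp in the rest, at pileups of 16.5 and 18. A longer peak also has more bases that an overlap can touch.

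The share rose steeply over classes of length in solitary peaks. At 54 bp it was 0 of 755, which allows a share of up to 0.397%, against 1 of 3315 others (0.0302%). At 55 to 80 bp it was 3 of 2581 (0.116%, 0.0395 to 0.341), against 0.0365% of the others (0.0167 to 0.0796). At 81 to 120 bp it was 3 of 1585 (0.189%, 0.0644 to 0.555), against 0.0839% of the others (0.0491 to 0.144). In each class up to 120 bp the intervals of solitary and other peaks overlapped. At 121 to 200 bp it was 18 of 1249 (1.44%, 0.914 to 2.27), against 0.298% over all ordinary-background peaks of that length. At 201 to 300 bp it was 20 of 370 (5.41%, 3.53 to 8.20), against 1.23%. Over 300 bp it was 22 of 201 (10.9%, 7.34 to 16.02), against 2.33%. The other cocaine peaks of the 3 classes over 120 bp had 0.204%, 0.914% and 1.79%, below the intervals of the solitary peaks in each class. Of the 66 shared solitary peaks, 60 were over 120 bp long. A rule set on summits in place of edges, a saline summit within 100 bp of the cocaine summit, was met by 59 solitary peaks (0.875%) and 120 others (0.205%), against 0.275% of all ordinary-background cocaine peaks. Peak length was not held constant under it.

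**Figure D5:**
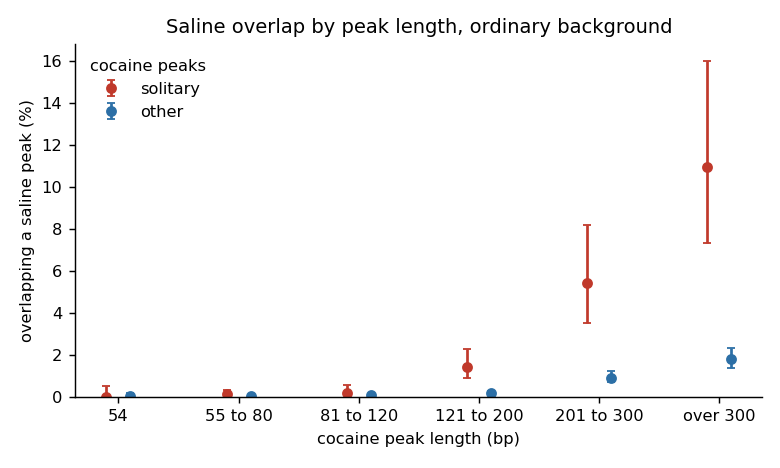
Percent of ordinary-background cocaine peaks overlapping a saline peak (vertical axis) by peak length class in bp (horizontal axis), for solitary peaks (red) and other peaks (blue), with Wilson 95% intervals. Solitary peaks reach 10.9% over 300 bp, and the others reach 1.79%.

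The overlap of solitary peaks varied less clearly with pileup. At ordinary background the share was 0.471% at pileups of 7 to 10, 0.946% at 11 to 15, 1.23% at 16 to 20 and 1.39% at 21 to 30. It was 0.546% at 31 to 50, from 3 peaks, and 2.02% over 50, from 2 of 99 (0.556 to 7.07), and the intervals of these 6 classes overlapped. In the same classes and order, the other cocaine peaks had 0.317%, 0.294%, 0.291%, 0.255%, 0.149% and 0.134%. At pileups of 7 to 10 and of 31 to 50 the intervals of solitary and other peaks overlapped. By distance to the nearest peak, the share among the other cocaine peaks was 0.254% under 500 bp, 0.124% at 500 to 1000 bp, 0.152% at 1 to 2 kb, 0.350% at 2 to 5 kb and 0.659% at 5 to 10 kb (0.443 to 0.979). Among solitary peaks it was 1.0% at 10 to 20 kb, 0.936% at 20 to 50 kb, 1.32% at 50 to 100 kb, 1.07% at 100 to 200 kb and 0.351% beyond 200 kb, from 2 peaks (0.0964 to 1.27). The share was thus higher with wider spacing from 500 bp up to the threshold, where the intervals on either side overlapped, and the intervals of the solitary classes overlapped each other.

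The saline peaks at solitary cocaine peaks were mostly solitary as well. The 133 shared members met 138 saline peaks, of which 124 (89.9%) had no other saline peak within 10 kb. In the saline list of 2298 peaks on these chromosomes, 458 were solitary by the same rule, and 316 of those (69.0%) overlapped a cocaine peak of any kind, against 1833 of all 2298 (79.8%). The rule for members therefore favours solitary saline partners. A second saline peak close by would often bring a cocaine neighbour, and the site would then not be a member. The 124 made up 27.1% of the solitary saline peaks. Summits lay within 100 bp of each other in 121 of the 138 pairs (87.7%), with a median distance of 16 bp.

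At ordinary background the cocaine peak was usually the wider and higher of the pair. Among 69 pairs, the median lengths were 241 bp in cocaine and 105 bp in saline, and the cocaine peak was longer in 64. Median pileups were 16 and 11, with the cocaine pileup higher in 59 pairs, lower in 6 and equal in 4. Every saline peak in these 69 pairs also had ordinary background. At high background, 66 pairs had median pileups of 64 and 55, with the cocaine pileup higher in 43 and lower in 19. These are raw pileups, from a cocaine ChIP pool 1.15 times the depth of the saline one. A site enters these pairs only by passing the caller's threshold in both lists, so the values do not measure change.

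The shared solitary sites of highest cocaine fold were single sites in both lists. The chromosome 1 site at 265469241 came first, with pileups of 64 in cocaine and 19 in saline and summits 21 bp apart. The site on chromosome 3 (161376462 to 161376913) had 39 and 23. On chromosome 11 (70966888 to 70967317) the pileups were 34 and 22, in a place with no other cocaine peak for 140.6 kb. Another site on chromosome 3 (114064101 to 114064489) had 33 and 20. In each of these 4 the saline peak was over 200 bp long, and the cocaine peak was longer still.

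The other 6 had saline peaks of 52 to 337 bp. Chromosome 10 (72544719 to 72544920) had pileups of 28 and 9, with saline peak length at its minimum of 52 bp. Chromosome 14 (104474908 to 104475306) had 51 and 10, the widest gap of the 10 as a ratio. Chromosome 7 (120559381 to 120559679) had 26 and 13, and there the saline peak (337 bp) was longer than the cocaine peak (299 bp). Chromosome 3 (60105514 to 60105869) had 24 and 17. Chromosome 2 (242007931 to 242007989) was the 1 short site, with 59 bp in cocaine, 53 bp in saline and pileups of 26 and 15. Chromosome 5 (86554012 to 86554352) had 23 and 14 and lay 1359 kb from its neighbour on one side. At all 10 the saline peak was solitary too, and the cocaine pileup was the higher. The choice of sites by cocaine fold favours a higher cocaine pileup, so these values do not compare the treatments.

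Of the 5 solitary peaks with the deepest input, 3 overlapped a saline peak of nearly the same extent, where 61.8% of all high-background cocaine peaks overlapped one. On chromosome 15 the pileups were 108 in cocaine and 104 in saline, on peaks of 92 and 88 bp. On chromosome 19 they were 107 and 104, on peaks of 150 and 148 bp. The highest pileups possible were 108 for cocaine and 104 for saline, so the values on chromosomes 15 and 19 are at or next to their ceilings and are not compared. On chromosome 20 they were 80 and 68, on peaks of 230 and 232 bp. Saline background at these 3 sites was also deep, from 20.6 to 30.2 times its own genome-wide level. The chromosome 9 site at 8631228 had a saline peak 181 bp away without touching it.

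Overlap with the saline list was spread over chromosomes. The 66 ordinary-background solitary peaks with a saline partner (0.979%, against 0.334% of all ordinary-background cocaine peaks) were found on 19 of the 21 chromosomes, with at most 9 on a chromosome. Chromosomes 3 and 10 had 9 each, out of 444 and 390. Chromosome X had 0 of 299, which allows a share of up to 1.0%, and chromosome 20 had 0 of 154, which allows up to 1.95%. Chromosome X had 0 shared solitary peaks at any background.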

How the data were processed

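The authors ran MACS version 2.0.10.20131216 at a q cutoff of 0.05, per the file headers, on 3 ChIP alignments pooled against 3 inputs per treatment. Duplicates were removed, per the file headers, which flattens sites of very high coverage. Positions are on rn6, per the submitters' processing notes, and alignment tools were not given in the sources used here. Each deposited pileup is an unscaled signal, each deposited fold is the caller's ratio of ChIP to local input, and −log10 p and −log10 q are as deposited. Positions and lengths in bp, and the other columns, are as deposited per the file headers, and starts are taken as 1-based.

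Local background was recovered as (pileup + 1) / fold − 1. Recomputed −log10 p then differed from the deposited values by at most 5.65e-05. The genome-wide background is fragment length times ChIP tags over an effective genome of 2e9 bp. Shares carry Wilson 95% intervals and ratios log-normal ones, and a count of 0 is read as allowing 3. No test was made, since each list pools its samples. The distance and overlap steps were tested on simulated data.

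The rule for named sites takes the 10 of highest fold, the 10 most isolated, the 10 shared of highest fold, the 5 longest, the 5 of deepest background, 5 on either side of the threshold and the 3 chromosomes at each end. Runs of solitary peaks were chosen after their values were seen. Members, limits and lists were chosen with earlier results of these data known. Alternatives varied the solitary distance, joining, background, q threshold, sequences and overlap rule. Position in genes and sequence motifs needed an rn6 genome and were not analysed here. Python 3.11.15, numpy 2.4.6, pandas 2.3.3, scipy 1.17.1 and matplotlib 3.10.9 were used.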

Additional observations from a re-analysis of the deposited data

How the results depend on the processing

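The number of solitary peaks followed the distance that defines them, with 11155 at 5 kb, 4773 at 20 kb and 2478 at 50 kb, and stayed within 1.5 times of 7319 under the other 5 alternatives. Their median length was 85, 79 and 72 bp at those distances and, at the original distance, 101 bp after joining peaks closer than 500 bp. The median distance to the nearest peak was 15489, 52392 and 111972 bp, and 30577 bp after joining. Joining also gave a median pileup of 17 and a median fold of 6.93, and a −log10 q of at least 3 gave a fold of 6.63. The saline share was 2.26% at 50 kb, 0.996% with low-background cocaine peaks only, 1.16% with reciprocal overlap of 50% and 0.984% with ordinary-background saline peaks only, and it moved by less than its counting interval under the other 9. The ordinary-background ratio of solitary to other peaks was 2.77 after joining, 2.08 with edges within 1 kb, 1.62 with a background limit of 20, 5.80 in peaks over 120 bp and 0.630 with stretches as the unit. It stayed within its interval under the other 13. Distance and counting unit act by construction; for the rest the cause was not tested. The alternatives for the ratio, and those on summits and saline background, were chosen after seeing the data. No replicate could be left out, and no paired analysis was possible because each peak list pools its samples. Single-sample depth is unknown.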

Other observations

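The surroundings of solitary peaks differed widely on a larger scale. The number of other cocaine peaks within 1 Mb of the summit had a median of 49 for solitary peaks (quartiles 27 and 95), against 111 for the others, and reached 515. There were 1727 solitary peaks with over 100 cocaine peaks within 1 Mb, with a median length of 88 bp and a median pileup of 15. At the other end, 34 had none, with a median length of 60.5 bp and a median pileup of 20.5. Overlap with a saline peak was found for 46 of the 1727 (2.66%, 2.00 to 3.53), against 1005 of 34312 other cocaine peaks in such places (2.93%) and 2.47% of all cocaine peaks, and for 0 of the 34, which allows a share of up to 8.82%. The nearest saline peak lay a median of 2.13 Mb from a solitary peak and 1.16 Mb from another cocaine peak.

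In 4 of the 66 pairs of a high-background solitary peak and a saline peak, the saline background was ordinary. The reverse, a high saline background at an ordinary-background solitary peak, was found in 0 of 69 pairs.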
